A study of Mus with 16 samples.

Results

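A set of 6 genes for cell-surface receptors were followed in the forebrain of mice lacking the histone demethylase KDM5C. They were *Scarf2* (ENSMUSG00000012017), *Scarf1* (ENSMUSG00000038188), *Megf10* (ENSMUSG00000024593), *Mertk* (ENSMUSG00000014361), *Axl* (ENSMUSG00000002602), and *Tyro3* (ENSMUSG00000027298), 6 of the 54219 genes counted. *Scarf2* was chosen from its measured counts, as a gene called higher in both mutant groups and called for a sex difference in that change. Its values, and any call of it, are therefore given as a description and not as a test. The other 5 were placed beside it because their products take part in recognition or engulfment of dying cells, debris, or synapses. They were tested, but they were chosen with earlier results of these data known, so a call among them is not independent evidence. All 6 genes passed the filter on low counts, as did 17866 genes in total.

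Bulk poly(A) mRNA-seq was made from P6 forebrains, meaning cortices and hippocampi together. The 16 animals comprised 4 wild-type (WT) males, 4 hemizygous *Kdm5c* knockout (*Kdm5c*-KO) males, 4 WT females, and 4 heterozygous (*Kdm5c*-HET) females, which keep an intact copy of this X-linked gene. The knockout allele was made by removing a pair of exons with Cre, and all groups came from a stock whose background mixes C57BL/6J with 129S1/SvImJ, with few litters sampled. A letter, D or E, ends the name of every animal, and the sources used here do not give its meaning. The E animals number 1 among WT males, 2 among knockouts, 2 among WT females, and 3 among heterozygotes. Total counts ranged from 21513783 to 30063352 per animal. *Kdm5c* itself is not analysed here, because the tables used for names pair it with no identifier. Levels are TMM-normalized CPM, that is, counts scaled to a common library size, changes are log2 fold changes (Log2FC) from an edgeR fit of all animals, and a gene was called at an adjusted p (q) under 0.1.

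Cells that die during development display phosphatidylserine on their surface, and neighbouring phagocytes read it directly or through soluble bridging proteins. In the developing brain, microglia and astrocytes use such receptors to clear dead cells and to remove surplus synapses. MERTK, AXL, and TYRO3 form the TAM family of receptor tyrosine kinases, which bind phosphatidylserine through the bridging ligands GAS6 and protein S. MEGF10 and SCARF1 carry arrays of extracellular EGF-like repeats and bind the complement protein C1q. SCARF2 shares this architecture with SCARF1, although its own ligands are less well described, and loss of human *SCARF2* causes Van den Ende-Gupta syndrome, a skeletal and craniofacial disorder.

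RefSeq on GRCm38.p6 (mm10), matched by symbol, places *Scarf2* at chr16:17797282-17808294, *Scarf1* at chr11:75513489-75526582, *Mertk* at chr2:128698915-128803162, *Axl* at chr7:25756500-25788924, and *Tyro3* at chr2:119797740-119818104. *Megf10* spans chr18:57133090-57297467, an interval that also holds the pseudogene *Gm18322*. The other 5 genes overlapped no further gene of that annotation. Counts cover whole genes, so exons and isoforms are not separated. Levels were compared between groups for each gene and not between genes, since no transcript lengths were used.

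*Scarf2* showed a low level in every WT animal, an intermediate level in *Kdm5c*-HET females, and the highest level in *Kdm5c*-KO males. The WT males had 5.89, 6.05, 7.15, and 8.45 CPM, and the *Kdm5c*-KO males had 36.3, 39.9, 40.9, and 45.6 CPM. The lowest knockout thus lay well above the highest WT male, with no overlap. The WT females had 5.96, 6.51, 6.79, and 7.55 CPM, and the *Kdm5c*-HET females had 16.7, 19.9, 20.3, and 21.1 CPM. Again the groups did not overlap, and the heterozygotes also lay entirely below the knockouts. WT females and WT males overlapped, so these neighbours in the order of levels did not differ beyond their spread.

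Behind these values stood 135 to 226 counts per WT male and 1002 to 1115 per knockout. The females had 155 to 194 counts when WT and 394 to 533 when heterozygous. The male means were 6.89 ± 1.18 CPM for WT and 40.7 ± 3.85 CPM for the knockout (SD, n = 4 each), with a Log2FC of 2.56 (SE 0.110), or 5.90-fold. In females they were 6.70 ± 0.661 and 19.5 ± 1.95 CPM (SD, n = 4 each), a Log2FC of 1.55 (SE 0.111), or 2.92-fold. The male change exceeded the female change by 1.01 on the log2 scale (SE 0.155). These are the readouts on which *Scarf2* was chosen.

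On the linear scale, *Scarf2* was 33.8 CPM higher in knockout than in WT males and 12.8 CPM higher in heterozygous than in WT females. The female difference was 37.9% of the male difference, a description of the readout on which the gene was chosen. By size of Log2FC, *Scarf2* ranked 13 among the 635 genes called higher in males and 7 among the 86 called higher in females. *Scarf2* also took up a changing part of the reads of all 6 receptors, 3.97 to 5.35% in WT males and 3.92 to 5.35% in WT females, against 20.3 to 23.9% in *Kdm5c*-KO males and 10.7 to 13.6% in *Kdm5c*-HET females. These shares depend on gene length as well as on transcript number.

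**Figure D1:**
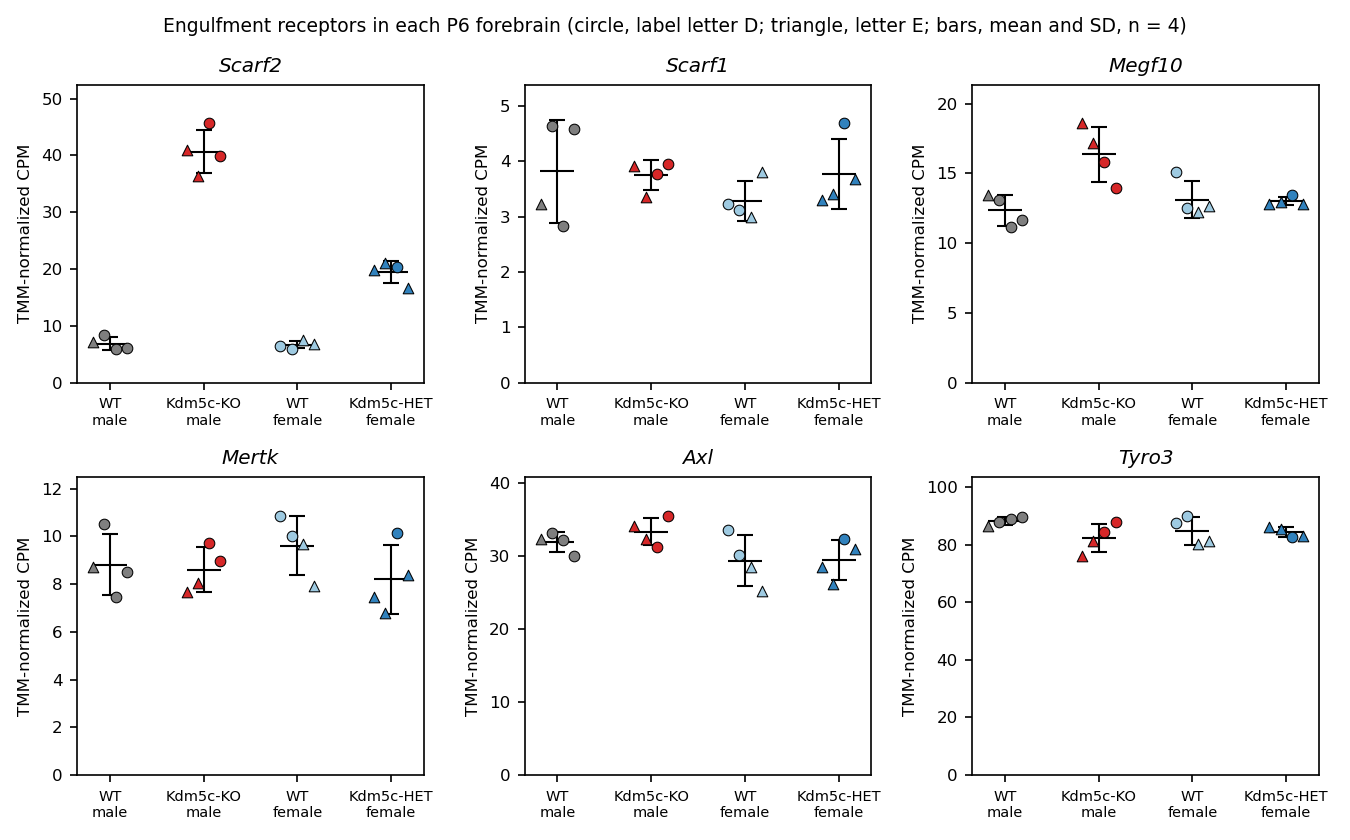
TMM-normalized CPM (vertical axes, from 0, a different scale per gene) of the 6 receptor genes in each animal, by group, with circles for label letter D, triangles for E, and bars for the mean and SD (n = 4). *Scarf2* separates both mutant groups from WT, the 4 *Kdm5c*-KO males lie above all WT males for *Megf10*, at 14.0 to 18.6 against 11.1 to 13.5 CPM, and for the other 4 genes every group overlaps its neighbours. WT female 1D, at 15.1 CPM for *Megf10*, lies within the range of the knockout males.

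*Scarf1*, the closest relative of *Scarf2* and a receptor for C1q-marked dying cells, was called in neither sex. The WT males had 2.83, 3.23, 4.57, and 4.63 CPM, and the *Kdm5c*-KO males had 3.35, 3.77, 3.92, and 3.94 CPM. All 4 knockouts fell inside the range of the WT males. The WT females had 3.0, 3.12, 3.22, and 3.81 CPM, and the *Kdm5c*-HET females had 3.30, 3.41, 3.69, and 4.68 CPM, with 3 of the 4 heterozygotes inside the WT range and 1 above it. In males the Log2FC was -0.03 (95% interval -0.373 to 0.321, q = 0.961, edgeR), and in females 0.20 (95% interval -0.150 to 0.550, q = 0.963, edgeR), a value that came to 0.08 without *Kdm5c*-HET female 9D.

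*Scarf1* was the most thinly counted of the 6 genes, with 70 to 124 counts per animal. Counting error alone gives a coefficient of variation of 10.2 to 10.8% at this depth, against an observed 24.2% (WT) and 7.32% (knockout) among males and 11.0% (WT) and 16.7% (heterozygous) among females. A Log2FC of the size estimated for *Megf10* in males lay within the female interval of *Scarf1*.

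*Megf10*, an astrocyte receptor with a part in synapse removal, was the only one of the 5 tested receptors that changed with genotype. The WT males had 11.1, 11.7, 13.1, and 13.5 CPM, and the *Kdm5c*-KO males had 14.0, 15.8, 17.2, and 18.6 CPM. The groups did not overlap, although the lowest knockout came within 1 CPM of the highest WT male. *Megf10* rose from a mean of 12.4 ± 1.12 to 16.4 ± 1.97 CPM (SD, n = 4 each), a Log2FC of 0.41 (SE 0.0931, 95% interval 0.215 to 0.604), or 1.33-fold, with q = 0.0159 by edgeR's quasi-likelihood test. An exact two-sided permutation test of the log2 CPM values gave p = 0.0286, the smallest value that 4 against 4 animals allow. It was not adjusted for the same test of the other receptors and contrasts. *Megf10* makes up the 1 of 5 tested receptors called in males, where 5.24% of all genes were called. The 5 were chosen with earlier results of these data known, so this count and these p-values are not independent evidence.

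In females, *Megf10* stayed level. The WT females had 12.2, 12.5, 12.7, and 15.1 CPM, and the *Kdm5c*-HET females had 12.8, 12.8, 13.0, and 13.5 CPM. The highest WT female lay within the range of the knockout males. The heterozygotes lay within the WT range and close together, with a coefficient of variation of 2.28%, below the 5.57% that counting error alone gives. The Log2FC was -0.01 (95% interval -0.209 to 0.182, q = 0.999, edgeR), so a female rise as large as the male estimate lay outside the interval. The male change exceeded the female change by 0.42 on the log2 scale (95% interval 0.148 to 0.699). This difference did not pass the test after adjustment over all genes (q = 0.636, edgeR), and the sex dependence of the *Megf10* change is thus not established by these 16 animals.

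The call of *Megf10* in males remained in each of the 16 fits that left out 1 animal, with a Log2FC of 0.35 without *Kdm5c*-KO male 2E (q = 0.0717, edgeR) to 0.48 without *Kdm5c*-KO male 6D (q = 0.00416, edgeR). Within letter D, the knockouts (n = 2) exceeded the WT males (n = 3) by 0.31 on the log2 CPM scale. Within letter E, they (n = 2) exceeded the single WT male by 0.41. In bulk tissue, more cells of the type that expresses *Megf10* and more *Megf10* RNA per cell cannot be told apart.

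Counts of *Ttr*, the defining transcript of the choroid plexus, varied widely between animals outside the knockout group. It had 6, 125, 5380, and 5849 counts in the WT males, against 40 to 60 in the knockouts. The WT females had 79, 97, 5389, and 5577 counts and the *Kdm5c*-HET females 17, 90, 1361, and 2131. Without the 6 animals above 1000 counts, a choice made after the counts were seen, 2 WT males remained against 4 knockouts. *Megf10* then had a Log2FC of 0.38 with q = 0.260 (edgeR), and the number of receptors called in males fell from 1 to 0. The part of choroid plexus tissue in the *Megf10* result was not tested. *Scarf2* had a Log2FC of 2.62 in males and 1.49 in females without those animals. Its male change then exceeded its female change by 1.14 on the log2 scale, against 1.01 with all animals. This sex difference is a readout on which *Scarf2* was chosen, so its calls are a description and not a test. It was called with all animals but not without the *Ttr*-high ones, a setting with fewer animals and a larger estimate.

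The TAM kinases showed no genotype change that passed the test in either sex. *Mertk*, the family member that drives engulfment by microglia and astrocytes, had 7.48, 8.52, 8.72, and 10.5 CPM in WT males and 7.68, 8.04, 8.96, and 9.74 CPM in *Kdm5c*-KO males. The knockouts lay inside the WT range, with a Log2FC of -0.03 (95% interval -0.313 to 0.243, q = 0.930, edgeR). The WT females had 7.93, 9.67, 10, and 10.9 CPM, and the *Kdm5c*-HET females had 6.78, 7.47, 8.39, and 10.1 CPM. The female groups overlapped broadly, the 2 lowest animals being heterozygotes, and the Log2FC was -0.23 (95% interval -0.510 to 0.044, q = 0.891, edgeR). It moved to -0.36 without *Kdm5c*-HET female 9D, to -0.16 without 8E, and to -0.00235 without the 6 *Ttr*-high animals. Of the 4 heterozygotes, 3 carry letter E, and within letter E the heterozygotes differed from WT by -0.218 on the log2 CPM scale (3 against 2), while within letter D the difference was -0.0379 (1 against 2).

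*Axl*, a TAM kinase induced in reactive phagocytes and also expressed by vascular cells, was not called in either sex. It had 29.9 to 33.2 CPM in WT males (mean 31.9 ± 1.39, SD, n = 4) and 31.3 to 35.5 CPM in *Kdm5c*-KO males (33.3 ± 1.87, SD, n = 4). These ranges overlapped, and the Log2FC was 0.06 (95% interval -0.103 to 0.225, q = 0.763, edgeR). With 1 animal left out, it ranged from 0.03 (without *Kdm5c*-KO male 6D) to 0.09 (without *Kdm5c*-KO male 4D). The females had 25.2 to 33.5 CPM in WT (29.4 ± 3.48, SD, n = 4) and 26.1 to 32.3 CPM in *Kdm5c*-HET (29.5 ± 2.74, SD, n = 4), a Log2FC of 0.00 (95% interval -0.164 to 0.167, q = 1, edgeR). The heterozygotes all lay within the WT range. Both female groups were spread more widely than counting allows for, with a coefficient of variation of 11.8% in WT and 9.29% in heterozygotes, where counting error alone gives 3.57% and 3.70%.

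*Tyro3*, the TAM kinase most expressed by neurons, had the deepest counts of the 6 genes, 1852 to 2630 per animal, and the narrowest intervals. The WT males had 86.3, 87.9, 89.0, and 89.5 CPM, and the *Kdm5c*-KO males had 76.1, 81.3, 84.4, and 87.7 CPM. Of the 4 knockouts, 3 lay below every WT male and the highest overlapped them. The Log2FC was -0.10 (95% interval -0.197 to 0.000647, q = 0.307, edgeR), and the exact two-sided permutation p was 0.0571, so the lower male mean did not pass either test. Without *Kdm5c*-KO male 2E the Log2FC was -0.06. The WT females had 80.1, 81.1, 87.6, and 90.0 CPM, and the *Kdm5c*-HET females had 82.5, 83.0, 85.4, and 86.1 CPM. The heterozygotes lay between the lower and the upper pair of WT females, with a Log2FC of -0.01 (95% interval -0.108 to 0.090, q = 0.999, edgeR).

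Counted over the 5 tested receptors, 0 were called in *Kdm5c*-HET females, where 0.509% of all genes were called, with 0 at an unadjusted p under 0.05 and 0 by DESeq2. For the sex by genotype interaction, 0 were called against 0.0392% of all genes, with 1 (*Megf10*) at an unadjusted p under 0.05 and 0 by DESeq2. The median Log2FC of the 5 receptors was -0.03 in males and -0.01 in females, beside medians over all tested genes of -0.0072 and -0.0008. The members went both ways, from -0.10 (*Tyro3*) to 0.41 (*Megf10*) in males and from -0.23 (*Mertk*) to 0.20 (*Scarf1*) in females. The interaction estimates of the remaining genes were -0.23 for *Scarf1* (q = 0.915), 0.20 for *Mertk* (q = 0.897), 0.06 for *Axl* (q = 0.957), and -0.09 for *Tyro3* (q = 0.855), all by edgeR. Single animals moved some of these, with a range of -0.35 (without WT male 5D) to -0.10 (without *Kdm5c*-HET female 9D) for *Scarf1* and of 0.12 (without *Kdm5c*-HET female 8E) to 0.32 (without 9D) for *Mertk*. For *Tyro3* the range was -0.12 (without *Kdm5c*-KO male 6D) to -0.05 (without *Kdm5c*-KO male 2E). Without the *Ttr*-high animals, the *Mertk* estimate was 0.000727 and that of *Tyro3* was -0.15.

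**Figure D2:**
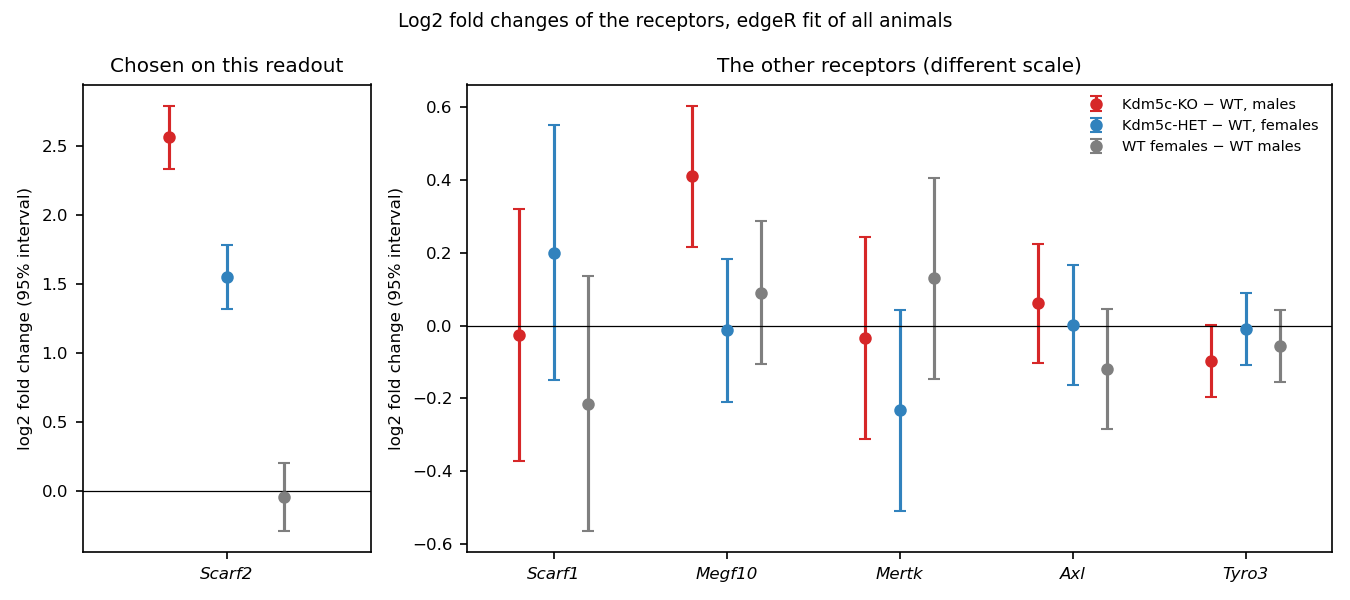
Log2FC (vertical axis, log2 units) with 95% intervals from the edgeR fit of all 16 animals, for *Scarf2* on its own scale at left and for the other 5 receptors at right, with colours for the contrasts in males, in females, and between the WT sexes. The male interval of *Megf10*, 0.215 to 0.604, lies above 0, whereas the intervals of *Scarf1*, *Mertk*, *Axl*, and *Tyro3* all include 0.

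Between the WT sexes, 0 of the 5 tested receptors were called, where 5% of all genes were called, with 0 at an unadjusted p under 0.05 and 0 by DESeq2. The female minus male Log2FC was -0.21 for *Scarf1* (q = 0.530), 0.09 for *Megf10* (q = 0.655), 0.13 for *Mertk* (q = 0.650), -0.12 for *Axl* (q = 0.451), and -0.06 for *Tyro3* (q = 0.562), all by edgeR. With 1 animal left out at a time, these ranged from -0.34 to -0.11 for *Scarf1*, from 0.05 to 0.23 for *Mertk*, and from -0.19 to -0.05 for *Axl*. *Tyro3* ranged from -0.09 to -0.03, and *Megf10* had 0.01 without WT female 1D. *Scarf2* had a Log2FC of -0.04 (SE 0.119) in this contrast, given without a test. For all 6 receptors, the WT males and WT females overlapped in CPM.

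The label letter moved with some of the receptors. In a fit with the letter added to the 4 groups, 2 of the 5 tested receptors were called between letters, where 23.6% of all genes were called. *Mertk* was lower in letter E by a Log2FC of -0.24 (SE 0.0834, q = 0.0508, edgeR), and *Tyro3* by -0.08 (SE 0.0298, q = 0.0772, edgeR). *Axl* had -0.11 (q = 0.185), *Scarf1* -0.16 (q = 0.426), and *Megf10* 0.06 (q = 0.626) in the same fit.

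Relative to the mean of its own group, *Mertk* was high in 6 of 8 letter D animals and 2 of 8 letter E animals, and *Tyro3* showed the same counts. *Axl* was above its group mean in 6 D and 3 E animals, *Scarf1* in 5 and 2, *Megf10* in 3 and 3, and *Scarf2* in 3 and 6. With the letter in the fit, *Megf10* kept its call in males, with a Log2FC of 0.39 and q = 0.0126 (edgeR), and *Mertk* in females moved to -0.17 with q = 0.753 (edgeR). Within the letters, *Scarf2* differed between knockout and WT males by 2.66 on the log2 CPM scale in D and 2.42 in E, and between heterozygous and WT females by 1.70 and 1.41.

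**Figure D3:**
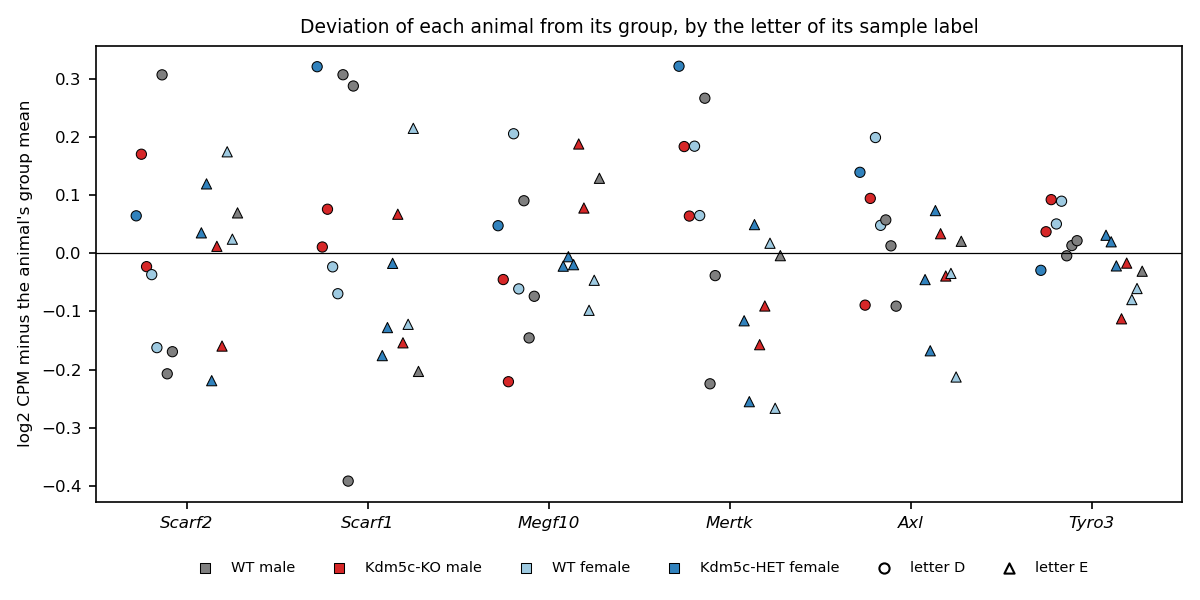
Difference of each animal's log2 CPM from the mean of its group (vertical axis, log2 units) for the 6 receptors, with circles for label letter D, triangles for E, and colours for the 4 groups. For *Mertk* and *Tyro3*, 6 of 8 circles lie above 0 and 6 of 8 triangles do not, whereas *Megf10* has 3 of each above 0.

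After removing group means, the correlations of the receptors with *Scarf2* were low, and they are given without intervals or a test. Over the 16 animals, which share their libraries and letters, the deviations of *Scarf2* had a Pearson r of 0.29 with *Scarf1*, 0.21 with *Megf10*, 0.32 with *Mertk*, -0.14 with *Axl*, and -0.23 with *Tyro3*. The highest value among the 15 pairs of receptors was 0.67, between *Mertk* and *Axl*. *Scarf1* and *Mertk* followed with 0.47. The genes whose deviations tracked each receptor most closely mostly carry no symbol in the tables used here. An exception was *Tpbg*, a Wnt-modulating surface protein, at r = 0.894 with *Axl*.

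Across all 16 animals, with the group differences kept in, the genes most like *Scarf2* in log2 CPM included *Zfp783* (Pearson r = 0.985), *Rps4l* (0.981), *Otol1* (0.978), and *Sipa1* (0.977). Such values mainly follow the 4 group means and are given without a test. *Rps4l*, a ribosomal protein S4 copy, had a Log2FC of 1.89 in males and 1.29 in females, *Zfp783*, a zinc finger gene, 1.03 and 0.59, and *Sipa1*, which encodes a Rap GTPase-activating protein, 0.67 and 0.45. *Otol1*, which encodes an inner ear matrix protein, had at most 1 count in every WT animal, 37 to 51 in *Kdm5c*-KO males, and 4 to 16 in *Kdm5c*-HET females.

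Other genes of engulfment could be described only in part. Of 99 symbols in 7 lists of pathway genes, 8 are paired with an identifier in the tables used, which name mainly genes that the study itself called, so the counts that follow are not independent evidence. The ligands and bridging proteins (0 of 13) and the genes that restrain engulfment (0 of 7) are not analysed here. The genes with EGF repeats of the MEGF type had 4 of 13 members paired, *Megf6* beside *Scarf2*, *Scarf1*, and *Megf10*. *Megf6* rose from 14.2 ± 1.53 to 20.0 ± 2.43 CPM in males (SD, n = 4 each), a Log2FC of 0.49 (SE 0.119, q = 0.0256, edgeR), and had 0.30 in females (q = 0.610, edgeR).

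*Scara3*, a scavenger receptor induced by oxidative stress (1 of 13 scavenger receptors paired), rose in males from 16.3 ± 0.890 to 23.9 ± 1.20 CPM (SD, n = 4 each), with a Log2FC of 0.55 (SE 0.0743, q = 9.46e-05, edgeR). In females it had a Log2FC of 0.27 (q = 0.210, edgeR). *Vav3*, an effector downstream of engulfment receptors (1 of 27 adaptors and effectors), rose by a Log2FC of 0.69 in males (SE 0.174, q = 0.0323, edgeR) and had 0.24 in females (q = 0.937, edgeR). Its WT levels also differed between the sexes, 3.57 ± 0.434 CPM in males and 5.23 ± 1.06 in females (SD, n = 4 each), with a female minus male Log2FC of 0.55 (q = 0.0997, edgeR), and the knockout males had 5.74 ± 1.39 CPM (SD, n = 4). *Adgrb1*, which encodes the phosphatidylserine receptor BAI1 (1 of 20 other engulfment receptors), fell in males from 520.8 ± 19.5 to 456.0 ± 12.4 CPM (SD, n = 4 each), a Log2FC of -0.19 (SE 0.0486, q = 0.0327, edgeR), and had -0.08 in females (q = 0.908, edgeR). *Xkr4*, a relative of the scramblases that expose phosphatidylserine (1 of 12), had a Log2FC of 0.15 in males (q = 0.128, edgeR).

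Of 55 marker symbols for the cell types a forebrain sample can hold, 9 are paired with an identifier. The tables used name mainly genes that the study itself called, so the changes that follow are not independent evidence. The markers without an identifier are not analysed here, so these changes do not show a shift in a cell type. *Siglech*, a microglial receptor (1 of 9 microglial markers), rose in *Kdm5c*-KO males from 5.56 ± 0.945 to 8.35 ± 1.42 CPM (SD, n = 4 each), with a Log2FC of 0.58 (SE 0.172, q = 0.0736, edgeR). *Aqp4*, an astrocyte water channel (1 of 9), had -0.24 (q = 0.115, edgeR), opposite in sign to *Megf10*, and *Rbfox3*, a marker of neurons (1 of 7), fell by 0.19 (q = 0.0642, edgeR). In females the Log2FC was 0.38 for *Siglech* (q = 0.725), -0.01 for *Aqp4* (q = 0.999), and -0.09 for *Rbfox3* (q = 0.908), all by edgeR. Choroid plexus genes (2 of 6 paired) passed the test in males, *Aqp1* with a Log2FC of -2.00 (q = 0.0642, edgeR) and *Ttr* with the counts given above (q = 0.0643, edgeR), but WT males 2D and 5D set them apart. *Aqp1* had 93 and 88 counts in those animals, 26 and 17 in WT males 1E and 7D, and 8 to 16 in the knockouts, and *Ttr* in WT male 1E, with 6 counts, lay below every knockout. Of the haemoglobin genes (4 of 5 paired), *Hba-a1*, *Hba-a2*, and *Hbb-bs* (its identifier, ENSMUSG00000052305, is also paired with the symbol *Hbb-b1*) fell by 0.59, 0.67, and 0.47 (q = 0.00131, 0.00904, and 0.0557, edgeR), and *Hbb-bt* had -0.57 (q = 0.112, edgeR). WT females were also below WT males for *Hba-a1*, with a Log2FC of -0.40 (q = 0.0417, edgeR), and for *Hba-a2*, with -0.54 (q = 0.0519, edgeR). The mean of *Hba-a1* was 51.0 CPM in WT males, 34.0 in knockouts, 38.6 in WT females, and 39.2 in heterozygotes, so that the WT males were the highest group. The alpha-globin genes are near-identical copies, so reads may be split between them. Markers of endothelial cells, meninges, and oligodendrocytes had no paired identifier. The part of these cell types in the *Scarf2* and *Megf10* values was not tested.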

How the data were processed

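The libraries were poly(A)-enriched, and each animal was counted as 1 sample of its group. Per the submitters' processing notes, reads were mapped to mm10 with STAR 2.5.3a and counted per gene with featureCounts of Subread 1.5.0; the strand setting is not given in the sources used here. The authors deposited these values as raw counts, whole numbers for 54219 Ensembl genes, without normalization. The 24 pairs of animals within groups differed by a chi-square of 2.78 to 13.9 per degree of freedom, so no library appeared to be deposited more than once within a group. Pairs across groups were not compared in this way.

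The analysis used edgeR 4.0.16 under R 4.3.3. The filterByExpr function kept 17866 genes, TMM factors scaled the libraries, and glmQLFit estimated 1 mean per group over all 16 animals. Contrasts were tested with glmQLFTest and adjusted by the Benjamini-Hochberg method over all genes tested, with a threshold of 0.1. Standard errors were taken as the size of the Log2FC divided by the square root of F, and 95% intervals from the degrees of freedom of the fit. Log2 CPM used a prior count of 2. Counting coefficients of variation cover counting error only. The steps were tested on simulated data, and figures were drawn with matplotlib 3.10.9.

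The receptors and gene lists were chosen with earlier results of these data known. Symbols came from the study's own gene tables and the 6 given identifiers, 1018 in all, and coordinates from RefSeq. The genes named are the receptors, for each list the genes called in any genotype contrast (otherwise those with the smallest p in males), and the 5 genes most like each receptor, of which 1 is not reported here. The 10 protein-coding neighbours of *Scarf2* are not analysed here, since none was paired with an identifier. Alternatives were DESeq2 1.42.0, edgeR scaled by DESeq2's size factors, all genes without the low-count filter, the label letter as a covariate, a threshold of 0.05, and leaving out each animal in turn. Leaving out the 6 animals with over 1000 *Ttr* counts was added after the data were seen.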

Additional observations from a re-analysis of the deposited data

Results flagged for a closer look

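In WT females, 1 animal stood apart for *Megf10*: female 1D had 15.1 CPM, whereas the other 3 had 12.2 to 12.7 CPM, a gap of 0.844 of the range of the group. For *Scara3*, WT female 3D had 19.5 CPM against 16.6 to 16.8 CPM in the other 3, a gap of 0.948 of the range. Over the 80 group values examined (20 genes in 4 groups), these were 2, and chance alone gives about 4 at 5%.

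The change of *Scarf2* differed between the sexes by a Log2FC of 1.01, male minus female. *Scarf2* was chosen on this difference, so the value is a description and not a test.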

How the results depend on the processing

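The number of tested receptors called in each contrast was the same under the alternatives listed in the methods, except that without the 6 animals with over 1000 *Ttr* counts it fell from 1 to 0 in males, where *Megf10* had a Log2FC of 0.38; that setting leaves 2 animals in 3 of the groups. Of 120 Log2FC values under alternatives that kept or jointly left out animals, 108 kept direction and, for the tested receptors, side of the threshold. Another 11 changed sign, and 1 value of a tested receptor lost its call (*Megf10*). The *Scarf2* values among them were scored on direction only. Its sex by genotype interaction, a readout on which it was chosen, was not called without the *Ttr*-high animals. There its Log2FC was 1.14, against 1.01 with all animals. The sign changes were of tested receptors not called in that contrast, and of *Scarf2* between the WT sexes, which was not tested. *Axl* in females turned from 0.00 to -0.00173 with DESeq2, -0.00131 with its size factors, and -0.000556 without the filter. With the letter as a covariate, *Scarf1* in males turned to 0.02 (0.0186), *Mertk* in males to 0.02 (0.0225), and *Tyro3* in females to 0.01 (0.0125). Without the *Ttr*-high animals, *Megf10* in females turned to 0.08 (0.0755), *Tyro3* in females to 0.06 (0.0612), the interaction of *Axl* to -0.08 (-0.0764), and between the WT sexes *Megf10* turned to -0.02 (-0.0182) and *Scarf2* to 0.12 (0.119). Over the fits that left out 1 animal each, 364 of 384 Log2FC values were unchanged in direction and, for the tested receptors, in call. The *Scarf2* values were again scored on direction only. The other 20 changed sign, with ranges of -0.150 to 0.0867 for *Scarf1* and -0.107 to 0.0661 for *Mertk* in males. In females the ranges were -0.0462 to 0.0597 for *Megf10*, -0.0668 to 0.0699 for *Axl*, and -0.0350 to 0.0190 for *Tyro3*. They were -0.00743 to 0.129 for the interaction of *Axl* and -0.118 to 0.0727 for *Scarf2* between the WT sexes. The cause of these sign changes was not tested. With DESeq2 and with the letter as a covariate, *Xkr4* and *Aqp4* were called in males, the haemoglobin genes called in males went from 3 to 4, and those called for the interaction from 0 to 1. *Siglech* was called in females with the letter as a covariate. *Scarf1*, at 70 to 124 counts per animal, had the thinnest counts and the widest intervals of the receptors.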
